A study of Mus musculus with 9 samples.

Results

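The circadian clock genes described here are 10 genes chosen by name, Arntl, Clock, Npas2, Per1, Per2, Per3, Cry1, Cry2, Nr1d1 and Dbp, out of 55450 genes in the count files. All 10 passed the filter on low counts, as did 20892 genes in all. RNA of dissected substantia nigra was sequenced in 9 libraries, 3 in each of 3 groups. The CTR libraries are labelled as a GFP control and come, according to the paper, from CX3CR1-CreERT2 mice given a Cre-inducible lentivirus coding for destabilized GFP. The CX3 libraries come from the same Cre line, and the DAT libraries from DAT-Cre mice, both given a Cre-inducible lentivirus that the labels call a Synuclein-expressing vector. CX3CR1-CreERT2 places a tamoxifen-dependent recombinase in microglia and other Cx3cr1-expressing myeloid cells, and DAT-Cre drives recombination in dopaminergic neurons. The mice were male, were injected on both sides of the brain and were perfused with saline, and the tissue was taken 5 weeks after transduction. Tamoxifen was given for 4 days to the CX3CR1-CreERT2 mice, so DAT differs from CTR in the Cre line and in tamoxifen as well as in the vector. Their age at injection was 8 weeks in the study's results, while its methods describe the purchased animals as 9 weeks old. The mice lived under a light-dark cycle, but the hour of tissue collection is not given in the sources used here, so a difference in that hour and a difference between the groups cannot be told apart in these libraries. The number of animals behind each library is not stated either, and the p-values below measure only the spread between these libraries, which may be technical.

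The mammalian clock is a loop of transcription and repression that runs in nearly every cell. ARNTL (also called BMAL1) pairs with CLOCK or with its relative NPAS2 and activates genes through E-box elements, among them the Per and Cry genes, Nr1d1 and Dbp. PER and CRY proteins then repress the ARNTL-CLOCK pair, while NR1D1 (REV-ERBα) represses Arntl, Clock, Npas2 and Cry1. The transcripts of Arntl and those of Nr1d1 and Dbp therefore peak at opposed times of day in most tissues, and Per1 also responds quickly to glucocorticoids and to neuronal activity. In bulk tissue the level of a clock gene further depends on which cells are present, and fewer cells of a type and less RNA per cell cannot be told apart.

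Reads counted on genes ranged from 21592817 to 39475428 per library, and 3 counts, the smallest signal taken as countable, equal 0.0779 to 0.151 CPM (counts scaled to the TMM-normalized library size), a floor that covers counting error only. DAT B, the shallowest library, stood apart from the other DAT libraries. The squared difference in its counts was 14.8 times that of random sampling against DAT A and 10.51 times against DAT C, while DAT A and DAT C differed by 2.16 times. CTR libraries differed from each other by 1.45 to 1.78 times and CX3 libraries by 2.501 to 6.45 times, and CX3 A had 19.0% of its reads unmapped, against 13.9% and 13.8% in CX3 B and CX3 C. All 7 dopaminergic neuron markers, among them Th and Slc6a3, were detected in the 9 libraries, with sums of 852 to 860 CPM in CTR, 1034 to 1053 in CX3 and 664 to 678 in DAT.

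The 10 genes share no chromosomal cluster, but 4 of them overlap other genes on the opposite strand (mouse GRCm38, GENCODE M21). Nr1d1 (chr11:98767932-98775333, minus strand) shares 263 bases, 8.55% of its exon sequence, with Thra. Dbp (chr7:45705088-45710203, plus strand) shares 539 bases, or 18.0%, with Sphk2, Cry2 (chr2:92403646-92434043, minus strand) 295 bases, or 4.67%, with D930015M05Rik, and Arntl (chr7:113207465-113314126, plus strand) 33 bases, or 0.439%, with the antisense gene Gm45355. Per1 lies at chr11:69095217-69109960, Per2 at chr1:91415982-91459324, Per3 at chr4:151003652-151044665, Cry1 at chr10:85131700-85185064, Clock at chr5:76209868-76304792 and Npas2 at chr1:39193731-39363236, and these 6 share no exon sequence with another gene. The strand-specific counts split evenly, with 49.8% to 49.9% on the reverse strand, so a read in shared bases cannot be given to either gene by its strand, and the counts of both strands together leave it out. Between 71.8% and 78.4% of the reads that the strand-specific counts assign to Nr1d1 and 40.9% to 47.6% of those assigned to Dbp were absent from the counts of both strands together, against 7.21% to 10.02% for Cry2 and 8.74% to 11.995% for Arntl. Such reads may come from either gene of a pair, and the levels below rest on the reads that do not fall in shared bases.

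The promoters of Per1, Cry1, Cry2, Nr1d1 and Per3 are printed because each holds letters of an E-box, E'-box or D-box, the elements through which the loop acts. Sequences are RefSeq promoters on GRCm38.p6, from 250 bases before to 50 bases after the start, and 13 such promoters were matched for 9 of the 10 genes, Per2 being the gene with no match. Capitals mark matches to the E-box CACGTG, the E'-box CACGTT or the D-box TTATGTAA on either strand, and an E'-box on the minus strand reads AACGTG.
Per1 (chr11:69098699-69098998, plus strand): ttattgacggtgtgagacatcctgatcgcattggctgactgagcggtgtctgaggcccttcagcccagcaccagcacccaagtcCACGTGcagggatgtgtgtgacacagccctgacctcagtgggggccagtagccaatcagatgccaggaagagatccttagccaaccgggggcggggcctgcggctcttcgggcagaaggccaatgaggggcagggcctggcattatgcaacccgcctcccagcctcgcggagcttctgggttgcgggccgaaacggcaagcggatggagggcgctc
Cry1 (chr10:85185005-85185304, minus strand): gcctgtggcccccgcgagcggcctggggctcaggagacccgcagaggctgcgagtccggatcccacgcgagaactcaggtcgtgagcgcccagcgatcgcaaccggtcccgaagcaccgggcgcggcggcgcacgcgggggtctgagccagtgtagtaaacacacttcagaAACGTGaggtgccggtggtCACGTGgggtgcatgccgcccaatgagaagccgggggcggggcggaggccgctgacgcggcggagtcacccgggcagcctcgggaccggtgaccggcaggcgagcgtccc
Cry2 (chr2:92434020-92434319, minus strand): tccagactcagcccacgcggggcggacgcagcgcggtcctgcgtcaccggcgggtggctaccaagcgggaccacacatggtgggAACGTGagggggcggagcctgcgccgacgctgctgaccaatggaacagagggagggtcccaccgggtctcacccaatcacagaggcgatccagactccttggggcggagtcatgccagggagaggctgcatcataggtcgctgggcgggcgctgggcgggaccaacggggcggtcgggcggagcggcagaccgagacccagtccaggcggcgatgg
Nr1d1 (chr11:98775328-98775627, minus strand): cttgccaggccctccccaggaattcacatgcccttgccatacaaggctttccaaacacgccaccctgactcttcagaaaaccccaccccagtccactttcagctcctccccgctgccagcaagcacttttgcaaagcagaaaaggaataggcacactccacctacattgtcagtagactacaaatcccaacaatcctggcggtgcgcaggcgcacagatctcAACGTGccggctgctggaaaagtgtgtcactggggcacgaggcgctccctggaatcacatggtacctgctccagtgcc
Per3 (chr4:151044616-151044915, minus strand): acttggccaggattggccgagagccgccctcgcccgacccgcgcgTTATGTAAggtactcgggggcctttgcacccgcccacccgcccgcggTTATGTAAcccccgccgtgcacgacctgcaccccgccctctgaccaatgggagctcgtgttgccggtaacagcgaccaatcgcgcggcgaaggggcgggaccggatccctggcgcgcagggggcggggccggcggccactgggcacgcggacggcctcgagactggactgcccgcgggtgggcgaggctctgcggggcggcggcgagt
The E-box begins 166 bases before the start in this promoter of Per1, while another Per1 promoter held no match, and 60 bases before it in Cry1, which also has an E'-box at 79 bases before the start. The E'-boxes of Cry2 and Nr1d1 lie at 166 and 28 bases before the start, and the D-boxes of Per3 at 205 and 158. Of all 32851 promoters of this length, 7.15% hold CACGTG, 4.68% CACGTT and 0.938% TTATGTAA. The core of the REV-ERB element, TAGGTCA, was found in 1 of the 2 promoters of Arntl at 31 bases after the start and is held by 2.61% of all promoters. None of the 13 matched promoters, which leave out Per2, held the cAMP response element TGACGTCA (1.79% of all promoters), the D-box variant TTACGTAA (0.119%), the core variant TGGGTCA (3.98%) or the palindromic glucocorticoid element (0.475%), and those of Dbp, Clock and Npas2 held none of the letters searched. A match is a run of letters and not a shown binding site.

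Per unit of exon length, Dbp and Nr1d1 were the most abundant of the 10 genes in all 3 groups except that Cry2 exceeded Dbp by a small margin in DAT. In CTR the mean level was 15.2 CPM per kb for Dbp, 12.6 for Nr1d1, 9.99 for Cry2, 8.80 for Clock, 7.51 for Per1, 5.17 for Cry1, 3.28 for Per3, 3.04 for Per2, 2.83 for Arntl and 2.06 for Npas2. In DAT the order at the top was Nr1d1 with 18.9 CPM per kb, Cry2 with 15.1 and Dbp with 15.02. The levels of Dbp and Nr1d1 per length can be too low, since reads in shared bases were left out.

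Arntl, the activator at the centre of the loop, varied little. It had 23.0, 20.4 and 20.5 CPM in CTR A, B and C, 22.7, 22.4 and 24.1 in CX3 and 23.9, 22.6 and 25.4 in DAT. The ranges of all 3 groups overlapped, since CTR A was as high as the CX3 libraries. The order of the means was CTR (21.3 ± 1.49 CPM, SD, n = 3), CX3 (23.1 ± 0.883), DAT (24.0 ± 1.41), and neighbours in this order lay about as far apart as their spread.

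Clock codes for the usual partner of ARNTL, and it was lowest in DAT. Its levels were 119.3, 117.3 and 125.8 CPM in CTR, 111.5, 129.1 and 130.1 in CX3 and 108.7, 90.4 and 112.6 in DAT. DAT B was the lowest library, and DAT C exceeded CX3 A, so only CTR and DAT did not overlap. Npas2, whose product can take the place of CLOCK, had 9.72, 9.89 and 10.1 CPM in CTR, 11.1, 11.3 and 10.3 in CX3 and 12.1, 9.71 and 14.0 in DAT. The CX3 libraries of Npas2 lay just above those of CTR, and the DAT libraries spanned the range of both, with a mean of 11.9 ± 2.15 CPM.

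Per1, a repressor of the loop that is also induced acutely, separated the groups fully. It had 41.6, 43.6 and 41.6 CPM in CTR (42.3 ± 1.197), 24.9, 25.7 and 26.7 in CX3 (25.8 ± 0.924) and 55.5, 47.2 and 52.4 in DAT (51.7 ± 4.19). Every CX3 library lay below every CTR library and every DAT library above. Per2, its close relative, had 17.8, 17.1 and 18.4 CPM in CTR, 11.2, 11.96 and 11.6 in CX3 and 15.9, 12.5 and 15.2 in DAT. For Per2 the DAT libraries lay between the other groups without touching either, so that CTR was highest. Per3, the third and least required member of the family, had 31.5, 31.5 and 31.4 CPM in CTR, 32.2, 33.4 and 31.4 in CX3 and 28.7, 23.6 and 29.8 in DAT. The Per3 level was lower in each DAT library than in any other library, and CTR and CX3 overlapped.

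**Figure D1:**
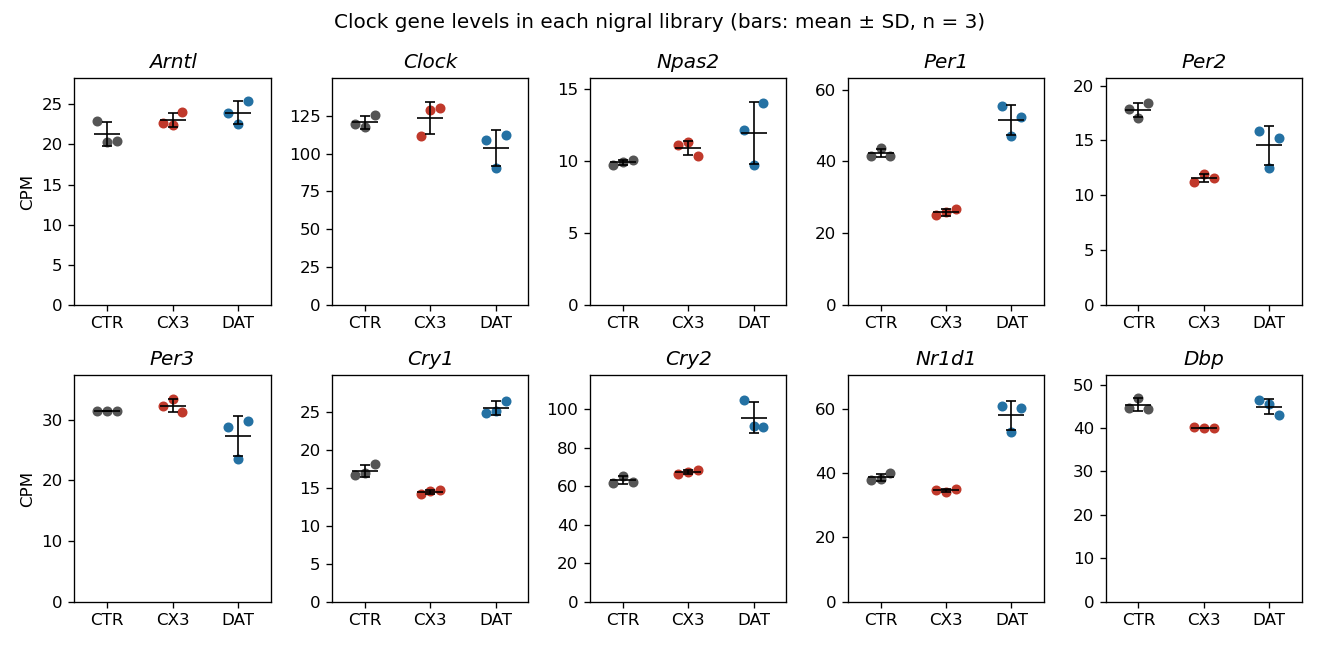
Level of each of the 10 clock genes in CPM (vertical axis, starting at 0) in the 3 libraries of CTR, CX3 and DAT, with replicates A to C from left to right, the mean as a horizontal line and the SD as an error bar (n = 3). Per1 separates all 3 groups, Cry1, Cry2 and Nr1d1 stand high in DAT, and Arntl and Dbp differ little.

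Cry1 and Cry2 code for the cryptochromes, the partners of the PER proteins in repression, and both were highest in DAT. Cry1 had 16.7, 17.0 and 18.1 CPM in CTR (17.3 ± 0.780), 14.2, 14.5 and 14.7 in CX3 (14.5 ± 0.272) and 24.8, 25.2 and 26.5 in DAT (25.5 ± 0.886). Cry2 had 61.6, 65.4 and 62.3 CPM in CTR (63.1 ± 1.98), 66.2, 67.4 and 68.5 in CX3 (67.3 ± 1.19) and 104.6, 91.2 and 90.8 in DAT (95.5 ± 7.85). No 2 groups overlapped for either gene, but CX3 lay below CTR for Cry1 and above it for Cry2.

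Nr1d1 and Dbp are direct outputs of ARNTL and CLOCK, one a repressor and the other an activator of D-box genes. Nr1d1 had 37.9, 38.3 and 40.0 CPM in CTR (38.7 ± 1.11), 34.7, 34.2 and 35.2 in CX3 (34.7 ± 0.519) and 61.1, 52.8 and 60.4 in DAT (58.1 ± 4.61). Dbp had 44.6, 47.0 and 44.4 CPM in CTR (45.3 ± 1.46), 40.1, 39.9 and 40.0 in CX3 (40.0 ± 0.104) and 46.5, 45.4 and 43.0 in DAT (44.9 ± 1.79). The 2 outputs thus differed in DAT, where Nr1d1 stood above every other library and Dbp lay within or just below the range of CTR.

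Comparing CX3 with CTR sets the Synuclein-expressing vector against the GFP control in mice of the same Cre line. The make-up of the dissected tissue also differed between these groups, and the hour of collection is not given. The part of the vector in the differences below therefore cannot be told apart from these. Per1 fell by 0.71 on the log2 scale (SE 0.0614, edgeR adjusted p = 1.11e-06), Per2 fell by 0.62 (SE 0.0791, adjusted p = 4.92e-05), Cry1 fell by 0.25 (SE 0.0594, adjusted p = 0.00537) and Dbp fell by 0.18 (SE 0.0483, adjusted p = 0.0114). In all, 4 of the 10 clock genes were lower and 0 higher, against 16.5% and 14.0% of all genes tested and 30.5% in either direction. At an unadjusted p under 0.05 edgeR gave 5 of the 10, all lower, and no share of all genes was taken at that cut. DESeq2 likewise called 4 lower and 0 higher, and 5832 of 20892 genes, 2582 of them higher. With only CX3 and CTR in the fit 6 were called, Nr1d1 (−0.15, adjusted p = 0.00793) and Cry2 (0.097, adjusted p = 0.0392, the 1 gene higher) being added. That fit also called more of all genes, 8443 of 20742, against 6367 of 20892 in the main fit. Cry1 was not called in reverse-strand counts (−0.26, adjusted p = 0.0571). Ranges did not overlap for 7 of the 10, against 49.3% of all genes. The median absolute log2 difference was 0.149 for the clock genes and 0.188 for all genes tested.

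The activators were not among the genes called in CX3. Arntl differed by 0.12 (95% interval −0.02 to 0.26, edgeR adjusted p = 0.195), Clock by 0.03 (−0.13 to 0.20, adjusted p = 0.784) and Npas2 by 0.14 (−0.08 to 0.36, adjusted p = 0.334). Per3 differed by 0.04 (−0.11 to 0.19), Cry2 by 0.09 (−0.03 to 0.22) and Nr1d1 by −0.16 (−0.28 to −0.03, adjusted p = 0.0545). Per1 and Per2 were called under all 19 alternative settings, with log2 differences of −0.75 to −0.67 and −0.66 to −0.57. The call of Dbp was lost without CTR B (−0.16, adjusted p = 0.0679), and Nr1d1 was called without DAT A (−0.16, adjusted p = 0.0437) or without DAT B (−0.15, adjusted p = 0.00699). In counts of the forward strand, which keep reads in the bases shared with Thra whichever gene they come from, mean Nr1d1 levels were 128 CPM in CTR and 137 in CX3, and over the alternatives its difference ranged from −0.18 to 0.09, so its direction in CX3 depends on the strand counts used.

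Between DAT and CTR, which differ in the Cre line and in tamoxifen as well as in the vector, the clock genes moved in both directions. Cry2 was higher by 0.60 on the log2 scale (SE 0.0573, edgeR adjusted p = 5.93e-07), Nr1d1 by 0.59 (SE 0.0580, adjusted p = 8.17e-07), Cry1 by 0.56 (SE 0.0584, adjusted p = 1.39e-06) and Per1 by 0.29 (SE 0.0601, adjusted p = 0.000743). Npas2 was higher by 0.28 (SE 0.104, adjusted p = 0.0331) and Arntl by 0.18 (SE 0.0670, adjusted p = 0.0363). Per2 fell by 0.27 (SE 0.0803, adjusted p = 0.00904), Clock fell by 0.21 (SE 0.0774, adjusted p = 0.0277) and Per3 fell by 0.19 (SE 0.0719, adjusted p = 0.0309). Dbp differed by −0.01 (95% interval −0.12 to 0.09, adjusted p = 0.849).

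In total 9 of the 10 clock genes were called between DAT and CTR, 6 higher and 3 lower, where 59.9% of all genes tested were called, 32.0% higher and 27.9% lower. The DESeq2 test called 7 of the 10, 4 higher and 3 lower, as did DESeq2 size factors, the stricter filter, the counts of each strand and the fit of these 2 groups alone. Of all genes, the DESeq2 test called 11985 of 20892, DESeq2 size factors 12501 of 20892 and the stricter filter 10633 of 16878. Forward-strand counts gave 11402 of 20378, reverse-strand counts 11333 of 20411 and the fit of 2 groups 11854 of 19639. Of all calls 53.4% were higher in DAT with TMM scaling and 37.8% with scaling by library size alone. Ranges did not overlap for 7 of the 10, against 64.1% of all genes, and the median absolute log2 difference was 0.277, against 0.386 over all genes. The calls of Cry1, Cry2 and Nr1d1 held in all 19 alternatives, while that of Arntl held in 4 and that of Npas2 in 3. Leaving out CTR B, CTR C, CX3 A, CX3 C, DAT A or DAT C ended the call of Arntl (0.12 to 0.16), as leaving out any of those or CTR A did for Npas2 (0.15 to 0.27). Clock was not called without CTR C (−0.20, adjusted p = 0.0716), nor Per3 without DAT B (−0.11, adjusted p = 0.0743).

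**Figure D2:**
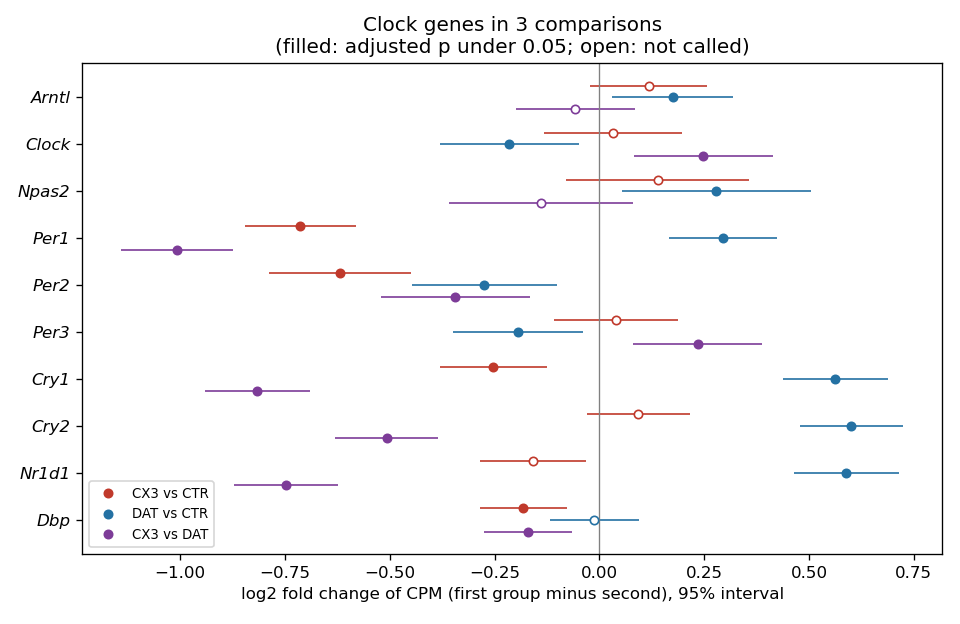
Log2 fold change of CPM (horizontal axis, first group minus second) of each clock gene in the comparisons CX3 vs CTR, DAT vs CTR and CX3 vs DAT, with 95% intervals and filled points at an edgeR adjusted p under 0.05. Per1 and Per2 lie below 0 in CX3 vs CTR, and Cry1, Cry2 and Nr1d1 lie near 0.6 in DAT vs CTR and below −0.5 in CX3 vs DAT.

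Both Cre lines given the Synuclein-expressing vector can also be set against each other. Per1 was lower in CX3 than in DAT by the largest margin of the 10 genes, 24.9 to 26.7 against 47.2 to 55.5 CPM, a log2 difference of −1.01 (edgeR adjusted p = 6.3e-09). Cry1 differed by −0.82 (adjusted p = 3.26e-08), Nr1d1 by −0.75 (adjusted p = 7.16e-08), Cry2 by −0.51 (adjusted p = 3.01e-06) and Per2 by −0.34 (adjusted p = 0.00251). Per2 was not called with library size alone (−0.15, adjusted p = 0.125) or in forward-strand counts (−0.14, adjusted p = 0.217). Dbp differed by −0.17 (adjusted p = 0.00839), but by 0.024 with scaling by library size alone, and its call was lost without CX3 C (−0.15, adjusted p = 0.0513) or DAT A (−0.12, adjusted p = 0.0772). Clock (0.25, adjusted p = 0.0132) and Per3 (0.23, adjusted p = 0.0114) were higher in CX3, and both calls were lost without CX3 B (0.21 for each, adjusted p = 0.0617 and 0.051).

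Of the 10 clock genes 8 were called between CX3 and DAT, 2 higher and 6 lower in CX3, where 58.9% of all genes tested were called, 27.6% higher and 31.3% lower. Of all calls 46.8% were higher in CX3 with TMM scaling and 66.7% with library size alone. Arntl differed by −0.06 (95% interval −0.20 to 0.08) and Npas2 by −0.14 (−0.36 to 0.08), although Npas2 was called without DAT B (−0.24, adjusted p = 0.0151). Ranges did not overlap for 7 of the 10, against 61.0% of all genes. The 3 comparisons share libraries with each other, so their values are not independent.

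The opposed arms of the loop give a description of phase over several genes. The activator arm was taken as the mean log2 CPM of 4 genes repressed by REV-ERB proteins (Arntl, Clock, Npas2, Cry1). The output arm was that of 5 genes driven through E-boxes and D-boxes (Nr1d1, Dbp, Per1, Per2, Per3). Cry2, although also an E-box gene and higher in DAT, was left out of both arms because its phase was taken to be weak. In CTR A, B and C the activator arm minus the output arm was −0.357, −0.414 and −0.359, in CX3 −0.0648, −0.0343 and −0.0263, and in DAT −0.325, −0.267 and −0.171. The ranges of the 3 groups did not overlap, and the group means were −0.38 ± 0.0322 (SD, n = 3) in CTR, −0.04 ± 0.0203 in CX3 and −0.25 ± 0.0780 in DAT. The distance between DAT and CTR rested on Cry1. With Cry1 left out of the activator arm, a choice made after seeing the data, the means were −0.184 ± 0.0393 in CTR, 0.237 ± 0.0237 in CX3 and −0.186 ± 0.0929 in DAT, and the ranges of CTR and DAT overlapped while CX3 stayed above both. Within the output arm, CX3 differed from CTR mostly in Per1 (−0.71) and Per2 (−0.62), against −0.18 for Dbp, −0.16 for Nr1d1 and 0.04 for Per3. The arm difference was not computed without Per1 and Per2.

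Between CTR and CX3 the activator arm had nearly the same mean (4.68 and 4.69), and the output arm was 5.06 in CTR and 4.73 in CX3. In DAT the means were 4.88 and 5.13, both above those of CTR, although the output arm of DAT B (4.999) lay below every CTR library. In neither comparison with CTR did one arm have a clearly higher mean and the other a clearly lower one. Pairs of genes that peak at opposed times gave unlike orders of the groups. Arntl minus Dbp was −1.09 ± 0.128 in CTR, −0.80 ± 0.0551 in CX3 and −0.91 ± 0.132 in DAT, while Arntl minus Nr1d1 was −0.87 ± 0.129, −0.59 ± 0.0351 and −1.28 ± 0.0673. DAT thus lay between the other groups by the first pair and lowest by the second, so Dbp and Nr1d1 placed the groups in different orders. These pairs were not computed in strand-specific counts. There mean Nr1d1 was 128 CPM in CTR and 137 in CX3 (forward) or 133 and 138 (reverse), while forward-strand Arntl was 22.2 and 23.8. The distance between CTR and CX3 by the second pair therefore depends on the counts used. In strand-specific counts the levels of Nr1d1 and Dbp are higher. The mean arm difference with forward-strand counts was −0.853 ± 0.0506 in CTR, −0.593 ± 0.00430 in CX3 and −0.764 ± 0.135 in DAT. With reverse-strand counts it was −0.879 ± 0.0315, −0.563 ± 0.0674 and −0.786 ± 0.0803. The order of the group means over all 9 genes was the same. With forward-strand counts, however, the means of CTR and DAT lay closer together than the SD of DAT.

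**Figure D3:**
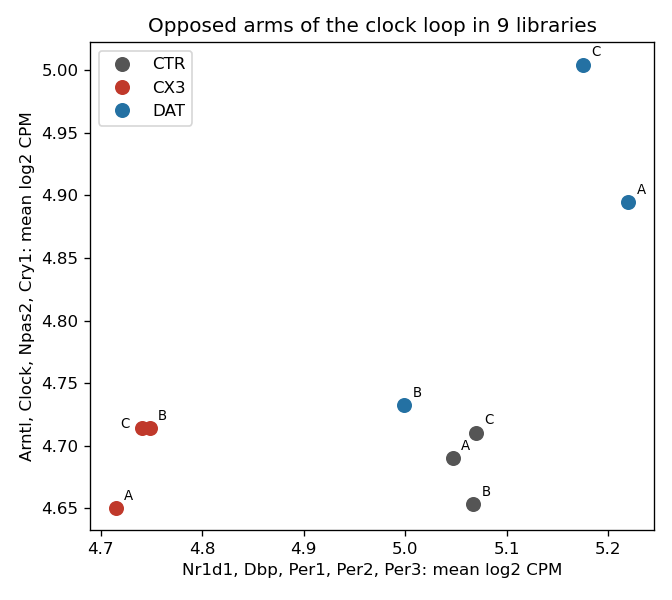
Mean log2 CPM of the activator arm (Arntl, Clock, Npas2, Cry1; vertical axis) against that of the output arm (Nr1d1, Dbp, Per1, Per2, Per3; horizontal axis), 1 point per library, labelled A to C. CX3 lies to the left of CTR at a like height, and DAT A and DAT C lie above and to the right of CTR while DAT B lies near the CTR libraries. The axes do not start at 0.

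Of 20 further genes of the loop, all measured, 2 were higher and 5 lower in CX3 than in CTR, where 14.0% and 16.5% of all genes were (median log2 difference 0.03, against −0.0033 over all genes). Rora, which codes for an activator that competes with REV-ERB proteins, was higher in CX3, with 298, 338 and 355 CPM against 212, 213 and 218 (0.63, SE 0.0567, edgeR adjusted p = 1.86e-06). Ciart, a repressor of the ARNTL-CLOCK pair, had 9.17 to 10.3 CPM in CX3 and 11.8 to 13.2 in CTR (−0.39, SE 0.0753, adjusted p = 0.00144). Nr1d2, the relative of Nr1d1, differed by −0.13 (adjusted p = 0.0277), and 13 of the 20 were not called.

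Between DAT and CTR 12 of these 20 genes were higher and 4 lower, against 32.0% and 27.9% of all genes (median 0.33, against −0.0038). The D-box activators Hlf and Tef, relatives of Dbp, were both higher in DAT. Hlf had 148 to 173 CPM in DAT against 96.7 to 97.6 in CTR (0.75, SE 0.0603, adjusted p = 9.9e-08), and Tef 264 to 275 against 204 to 208 (0.39, adjusted p = 1.05e-06). Dbp, from the same family, was level between these groups. Kinases that act on clock proteins were higher as well, Gsk3b by 0.62 (SE 0.0589, adjusted p = 5.67e-07) and Csnk1d by 0.47 (adjusted p = 3.18e-07). Arntl2, a relative of Arntl, was lower, with 3.76, 1.96 and 3.20 CPM in DAT against 7.55, 7.14 and 7.27 in CTR (−1.24, SE 0.155, adjusted p = 8.63e-06). Nr1d2 was lower by −0.15 (adjusted p = 0.00471) where Nr1d1 was higher.

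Between CX3 and DAT 3 of the 20 were higher in CX3 and 11 lower, against 27.6% and 31.3% of all genes (median −0.30). Arntl2 was higher in CX3 by 1.34 (adjusted p = 3.42e-06), and Btrc, whose product takes part in the breakdown of PER proteins, was lower (−0.58, adjusted p = 5.41e-07). Nr1d2 differed by 0.03 between these groups (adjusted p = 0.604).

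Genes that answer to glucocorticoids, to temperature and to neuronal activity were read beside the clock genes, since Per1 is also induced by several of these signals. All 8 glucocorticoid-responsive genes were lower in CX3 than in CTR and all 8 lower in DAT than in CTR, against 16.5% and 27.9% of all genes, with medians of −0.58 and −0.59. Sgk1, a kinase induced by glucocorticoids, had 359 to 369 CPM in CTR, 100.1 to 102.8 in CX3 and 121 to 137 in DAT, or −1.85 (SE 0.0506, edgeR adjusted p = 3.89e-12) and −1.53 (SE 0.0504, adjusted p = 1.41e-11) against CTR. Zbtb16 differed by −1.44 (adjusted p = 1.01e-07) and −1.12 (adjusted p = 2.93e-07), and Fkbp5 by −0.60 (adjusted p = 9.13e-07) and −0.15 (adjusted p = 0.0243). Per1 was lower than in CTR in CX3 and higher in DAT, so it moved with these genes in one of the groups and against them in the other. Sgk1 is also expressed in oligodendrocytes, whose summed markers lay above CTR in CX3 and below CTR in DAT, and their part in its level was not tested. Between CX3 and DAT 2 of the 8 were higher in CX3 and 4 lower, against 27.6% and 31.3% of all genes. Fkbp5 (−0.46, adjusted p = 3.46e-06) and Zbtb16 (−0.32, adjusted p = 0.0201) were furthest apart.

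Neurons switch on immediate early genes with activity. Of the 9 listed, 5 were lower and 4 not called in CX3, where 16.5% of all genes were lower, and in DAT 6 were higher, 1 lower and 2 not called, where 32.0% were higher and 27.9% lower. Fos, Fosb, Junb and Dusp1 were the 4 genes called lower in CX3 and higher in DAT, Egr1 and Arc were called in DAT and not in CX3, Nr4a1 in CX3 and not in DAT, Npas4 in neither, and Egr2 was lower in DAT. Fos had 22.6, 22.4 and 23.8 CPM in CTR, 12.6, 11.4 and 11.6 in CX3 and 30.4, 29.9 and 31.0 in DAT, the same order of groups as Per1. Its differences from CTR were −0.95 (SE 0.0597, adjusted p = 4.55e-08) and 0.41 (SE 0.0566, adjusted p = 2.38e-05). Fosb was lower in CX3 (−0.88), with 1.69 to 2.19 CPM against 3.05 to 3.71. Egr1 had 20.4 to 21.3 CPM in CTR, 21.4 to 22.2 in CX3 and 55.3 to 57.8 in DAT (1.46 against CTR, adjusted p = 2.07e-11), and Arc was higher in DAT by 1.04. Between CX3 and DAT 7 of the 9 were lower in CX3 and 1 higher, against 31.3% and 27.6% of all genes, with −1.55 for Fosb and −1.39 for Egr1. The part of these genes' signals in the Per1 levels was not tested.

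Of the 8 temperature-responsive genes 2 were higher and 6 lower in CX3 than in CTR, against 14.0% and 16.5% of all genes. The 2 cold-induced genes were the higher ones, Cirbp with 78.4 to 81.1 CPM against 46.1 to 49.5 (0.74, adjusted p = 6.96e-07) and Rbm3 with 71.5 to 74.8 against 46.4 to 49.1 (0.60, adjusted p = 1.95e-05), and the heat-shock genes were the lower ones. Hspa1b had 1.94 to 2.54 CPM in CX3 and 15.4 to 16.3 in CTR (−2.85, SE 0.123), and Hspa1a 1.65 to 1.80 against 6.07 to 6.60 (−1.89, adjusted p = 3.97e-08). Hspa1a and Hspa1b are near-identical copies whose reads can be split between them, so their separate values are uncertain. In DAT 1 of the 8 was higher than in CTR (Cirbp, 0.59, adjusted p = 1.58e-06) and 3 lower, against 32.0% and 27.9% of all genes, with Hspa1b among the lower (−1.18), while Rbm3 differed by 0.01 (adjusted p = 0.932). Between CX3 and DAT 2 were higher in CX3 and 5 lower, against 27.6% and 31.3% of all genes, with −1.98 for Hspa1a and −1.68 for Hspa1b.

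**Figure D4:**
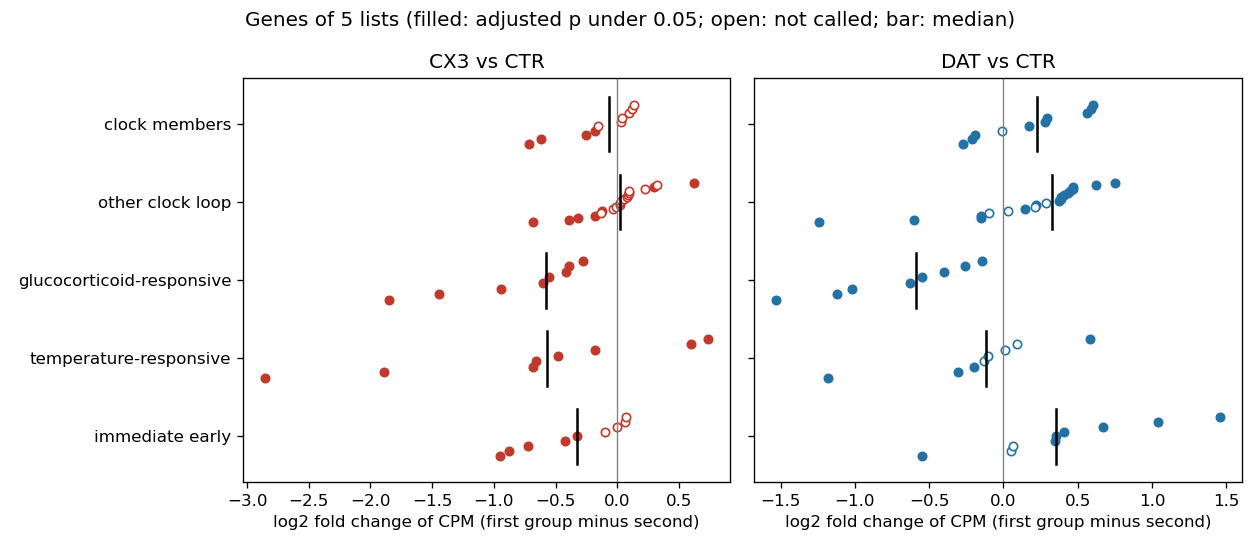
Log2 fold change of CPM (horizontal axis) of each gene in 5 lists for CX3 vs CTR and DAT vs CTR, 1 point per gene, filled at an edgeR adjusted p under 0.05, with the list's median as a vertical bar. All 8 glucocorticoid-responsive genes lie below 0 in both comparisons, and the immediate early genes lie mostly below 0 in CX3 and above 0 in DAT.

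Of 7 genes listed for the suprachiasmatic nucleus, the brain's central clock, and for the hypothalamus around it, 5 passed the filter, Nms and Prok2 being left out. Avp, which codes for vasopressin, had 0.394, 0.440 and 0.400 CPM in CTR, 0.701, 0.462 and 0.495 in CX3 and 5.95, 8.05 and 5.66 in DAT (3.96 against CTR, SE 0.214, edgeR adjusted p = 1.74e-09; −3.54 for CX3 against DAT). Six6, a homeodomain gene of the hypothalamus and pituitary, had 8, 7 and 4 counts in CTR, 3, 2 and 0 in CX3 and 34, 21 and 22 in DAT. Vip had 2.06 to 2.25 CPM in CX3 and 1.17 to 1.73 in CTR (0.57, adjusted p = 0.0311). Rgs16, which is also expressed outside this nucleus, was the most abundant of the list, with 54.8 to 58.8 CPM in CTR, 64.7 to 67.4 in CX3 and 54.8 to 56.1 in DAT, and Lhx1 had 8.73 to 9.20, 6.62 to 7.97 and 18.2 to 20.4. In CX3 against CTR 2 of the 5 were higher and 2 lower, where 14.0% and 16.5% of all genes were. In DAT against CTR 3 were higher and 2 not called, where 32.0% of all genes were higher and 27.9% lower. In CX3 against DAT 2 were higher and 3 lower, against 27.6% and 31.3% of all genes.

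The make-up of the dissected tissue differed between the groups on the same libraries. Summed neuron markers ranged from 2662 to 2706 CPM in CTR, 2989 to 3073 in CX3 and 4150 to 4290 in DAT, the same order of groups as for Cry2. Of the 6 neuron markers 5 were higher in DAT than in CTR, where 32.0% of all genes were. In CX3 3 were higher and 2 lower, against 14.0% and 16.5% of all genes. Summed astrocyte markers ranged from 4782 to 4788 CPM in CTR, 2767 to 2984 in CX3 and 2804 to 3057 in DAT, and oligodendrocyte markers from 16145 to 16200, 17255 to 17743 and 12129 to 12977. Microglia markers were highest in CTR, at 690.1 to 698 CPM against 458 to 463 in CX3 and 451 to 463 in DAT, and so were T cell markers (50.6 to 52.9, 43.4 to 45.3 and 12.2 to 14.3) and B and plasma cell markers (303 to 321, 72.3 to 77.2 and 10.2 to 13.5). Monocyte and neutrophil markers summed to 43.8 to 46.1, 18.5 to 19.6 and 4.92 to 5.38 CPM. Ly6c2 made up most of this sum in CTR (39.2 ± 0.935 CPM), but had 8.70 ± 0.564 CPM in CX3 and 2.40 ± 0.0644 in DAT. Ccr2 had 3.37 to 4.26 CPM in CTR, 8.55 to 10.7 in CX3 and 2.02 to 2.31 in DAT. It was higher in CX3 than in CTR (1.35, edgeR adjusted p = 9.13e-07), and in CX3 its mean exceeded that of Ly6c2. In CX3 5 of the 6 microglia markers, 2 of the 6 T cell markers and all 4 astrocyte markers were lower than in CTR, where 16.5% of all genes were. In DAT 6 of 6, 6 of 6 and 2 of 4 were lower than in CTR, against 27.9% of all genes.

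Markers of neighbouring tissues differed too. Choroid plexus markers summed to 27.6 to 30.2 CPM in CTR, 1452 to 1564 in CX3 and 844 to 1015 in DAT. All 4 were higher in both groups than in CTR, where 14.0% of all genes were higher in CX3 and 32.0% in DAT. Pituitary markers summed to 57.5 to 60.1, 2.97 to 3.09 and 15.1 to 21.0 CPM. The pituitary sum in DAT was almost all Pomc, which is also a hypothalamic gene and had 17.9 ± 0.431 CPM in CTR and 17.2 ± 3.17 in DAT (adjusted p = 0.588), while Gh had 33.6 to 35.8 CPM in CTR and at most 0.165 in DAT. Cerebellar granule cell markers summed to 2.99 to 3.17 CPM in CTR, 4.06 to 4.13 in CX3 and 14.7 to 19.1 in DAT, blood markers to 224 to 248, 88.1 to 100.1 and 174 to 248.7, and endothelial markers to 79.8 to 81.4, 119 to 131 and 152 to 161. Of the 3 endothelial markers only Cldn5 was called in CX3 against CTR, where 30.5% of all genes were called. No listed marker was at 0 in all 9 libraries. The part of these differences in the levels of the clock genes was not tested, and tissue make-up and group cannot be told apart here.

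For each clock gene the gene with the most similar profile was found among 16216 genes with a mean of at least 1 CPM, by the root-mean-square difference of centred log2 CPM over the 9 libraries. For Dbp the nearest were Gtf2f1 (0.0372), Mpp1 (0.0386), Rbm10 (0.0393), Lta4h (0.0398) and Cd82 (0.0410), and for Arntl Isoc1 (0.0456), Cyth3 (0.0463), Phc1 (0.0468), Mtmr12 (0.0476) and B3glct (0.0520). Of the genes searched, 6.01% lay within 0.1 of Dbp and 4.78% within 0.1 of Arntl, so these neighbours are a few of many. For the other clock genes this share ranged from 0.123% (Per1) to 3.75% (Cry2). The nearest single genes were Snrnp200 for Per1 (0.0445), Arid5b for Per2 (0.0653), Hus1 for Per3 (0.0364), Lrp10 for Cry1 (0.0355), Prex1 for Cry2 (0.0437), Usp22 for Nr1d1 (0.0290), Gpatch8 for Clock (0.0337) and Wdr90 for Npas2 (0.0556). The clock genes themselves were left out of the genes searched, so the search cannot show how alike they are to each other. Snrnp200, for example, had 114 ± 0.670 CPM in CTR, 72.4 ± 4.38 in CX3 and 142 ± 12.9 in DAT, the order of Per1.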

How the data were processed

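Poly(A) RNA of mouse nigral tissue was sequenced in 9 libraries with a stranded kit and reads of 76 bases, trimmed with Trimmomatic and aligned with STAR to mm10 by the authors, whose test was DESeq2. The authors deposited raw counts of reads per gene in 3 columns, unstranded, forward and reverse. STAR writes its gene counts in this layout, although featureCounts is the counter named in the methods. The strands hold nearly equal totals, and the unstranded column was used. Rows that are no gene (4 per file) stayed out of library sizes, and all 55450 gene identifiers matched GENCODE M21. Samples were grouped by their labels.

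Counts were filtered by filterByExpr, scaled by TMM and tested by edgeR 4.0.16 quasi-likelihood F tests in R 4.3.3, with all 9 libraries in 1 fit and Benjamini-Hochberg adjustment over 20892 genes. Genes at an adjusted p under 0.05 are called. SE and 95% intervals come from the F statistic and its degrees of freedom. CPM are counts scaled to the TMM-normalized library size, and CPM per kb divides them by exon-union length. The procedure was tested on simulated data. Alternatives were DESeq2 (1.42.0) size factors and Wald test, library size alone, looser and stricter filters, each strand's counts, only the groups compared, a replicate block, a fold threshold of 1.2 and leaving out each library.

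The clock genes and the gene lists were chosen with earlier results of these data known. From each list beside the clock genes, the called genes with the largest absolute differences were named, 3 of the loop and 2 of each other list. A gene of the loop list that this rule would name is not reported here. Nr1d2, Tef, Csnk1d, Fkbp5, Fos in DAT, Cirbp and Rbm3 in CX3 and Snrnp200 were described further after their values were seen. Nearest profiles were given for 5 genes with Arntl and Dbp and for 1 with each other clock gene. Python 3.11.15 was used for positions, promoters and plots.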

Additional observations from a re-analysis of the deposited data

How the results depend on the processing

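The log2 differences of the 10 clock genes were recomputed under 19 alternatives in 3 comparisons, and of these 570 values 496 kept their direction and side of the threshold, 57 were no longer called, 6 became called and 11 changed sign. The called value among the 11 was Dbp in CX3 against DAT (log2 fold change 0.024 with library size alone, against -0.17), and the other 10, not called in either setting, were of Arntl and Npas2 in CX3 against DAT, Nr1d1 and Clock in CX3 against CTR and Dbp in DAT against CTR. A fold threshold of 1.2 left 2 clock genes called in CX3 against CTR, 3 in DAT against CTR and 4 in CX3 against DAT, where 4, 9 and 8 were called without it, and 1763, 8228 and 7989 of all genes, against 6367, 12520 and 12311. The genes that passed it were Per1 and Per2, then Cry1, Cry2 and Nr1d1, then Per1, Cry1, Cry2 and Nr1d1. Leaving out 1 library gave 3 to 5, 6 to 9 and 6 to 9 clock genes called, and 4638 to 8588, 11259 to 13389 and 11265 to 13254 of all genes. The fewest in DAT against CTR (6) came without CTR C and the fewest in CX3 against DAT (6) without CX3 B, while leaving out DAT B gave 5, 8 and 9.

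Scaling by library size alone moved the median log2 difference of all genes to 0.04, -0.15 and 0.20, and the share of calls that were higher from 45.9%, 53.4% and 46.8% to 58.9%, 37.8% and 66.7%. Under it Dbp was called lower in DAT than in CTR (-0.16, edgeR adjusted p = 0.0114). Of the mean levels recomputed, 321 moved by less than the SD between libraries and 69 by more. The arm difference was -0.85 in CTR, -0.59 in CX3 and -0.76 in DAT with forward-strand counts and -0.88, -0.56 and -0.79 with reverse-strand counts, which assign more reads to Nr1d1 and Dbp. With Cry1 left out of the activator arm, an alternative added after seeing the data, it was -0.184 in CTR, 0.237 in CX3, where the sign turned, and -0.186 in DAT.

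Replicate letters did not pair the libraries. Correlations of the deviations of same-letter libraries ranged from -0.332 to 0.114 over 16271 genes. With a replicate block 4, 8 and 8 clock genes and 5805, 12144 and 11955 of all genes were called, and Npas2 in DAT against CTR was the clock gene whose call it changed. A group of 3 libraries gives limited precision.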
